A study of Mus musculus with 10 samples.

Results

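The 7 genes described here encode the enzymes and cofactors that release fatty acids from stored triglyceride, with 2 related phospholipases. They are Pnpla2, Pnpla3, Abhd5, Lipe, Mgll, Pnpla7 and Pnpla8, and they were chosen by gene symbol. All 7 had a row among the 19414 genes of the deposited table, and all 7 were among the 13157 genes that were tested, those with a mean of at least 1 CPM (reads of a gene per 1e+06 reads of its library) over all mice. The mRNA was measured by bulk RNA sequencing of poly-A selected RNA from the livers of 10 female HET3 mice, a stock in which each animal has a different mix of genes from several inbred strains. Of these, 5 mice were fed the Longevity diet for 5 months (LD_405, LD_406, LD_442, LD_513 and LD_515) and 5 were fed a standard diet (SD_403, SD_500, SD_501, SD_502 and SD_646). All mice are labelled as 25 months old, and whether that age was reached before or after those months of feeding is not settled by the labels. The composition of the diets is not given in the sources used here, and nothing says whether mice shared a cage or litter.

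The comparison asks how the liver transcriptome of mice on the Longevity diet differed from that of mice on the standard diet. On the Longevity diet the mRNA of Pnpla2, the enzyme that starts triglyceride breakdown, rose 2.34-fold, and every mouse on the Longevity diet had more of it than every mouse on the standard diet. Pnpla7 also had no overlap between the diets, at 1.40-fold, and Mgll averaged 2.10-fold higher with 1 overlapping mouse, but neither passed the test over all genes. Abhd5, the protein activator of PNPLA2, overlapped between the diets, as did Pnpla3, Lipe and Pnpla8, with intervals of the difference that include zero.

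Triglyceride is stored in the cell as a droplet with a coat of proteins. PNPLA2 (adipose triglyceride lipase) removes the first fatty acid and leaves diacylglycerol, LIPE (hormone-sensitive lipase) cleaves diacylglycerol, and MGLL (monoglyceride lipase) cleaves the remaining monoacylglycerol into glycerol and a fatty acid. ABHD5 switches PNPLA2 on, while the small protein G0S2 blocks it. In the liver the released fatty acids can be burned in mitochondria, turned into ketone bodies, built back into triglyceride, or used as signals for nuclear receptors of the PPAR family. PNPLA3 is a droplet protein whose human gene is known for a variant tied to fatty liver. PNPLA7 is known as a lysophospholipase of the endoplasmic reticulum and PNPLA8 as a phospholipase A2 of mitochondria and peroxisomes, so these last members are relatives of the triglyceride lipases more than triglyceride lipases themselves.

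The promoters of the members with an unadjusted p under 0.05 in the test described further on, Pnpla2, Mgll and Pnpla7, are printed here so that the start of each gene can be read beside its values. Each runs from 250 bases before to 50 bases after the start of the gene as RefSeq gives it on GRCm38.p6, 5′ to 3′ on the gene's own strand, at chr7:141454938-141455237 (+) for Pnpla2, chr6:88724162-88724461 (+) for the upstream start of Mgll and chr2:24975783-24976082 (+) for Pnpla7. Capitals mark each match, on either strand, to 7 short motifs: the GC box GGGCGG, the CCAAT box CCAAT, the TATA box TATAAA, the nuclear receptor half-site AGGTCA, the forkhead site GTAAACA, the E-box CACGTG and the cAMP response element TGACGTCA.
Pnpla2: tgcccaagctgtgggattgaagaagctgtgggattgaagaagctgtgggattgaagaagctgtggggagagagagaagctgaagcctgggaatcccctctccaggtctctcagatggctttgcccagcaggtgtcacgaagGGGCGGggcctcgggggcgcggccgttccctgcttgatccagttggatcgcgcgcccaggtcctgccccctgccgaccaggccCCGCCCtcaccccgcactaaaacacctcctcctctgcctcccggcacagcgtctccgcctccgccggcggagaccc
Mgll: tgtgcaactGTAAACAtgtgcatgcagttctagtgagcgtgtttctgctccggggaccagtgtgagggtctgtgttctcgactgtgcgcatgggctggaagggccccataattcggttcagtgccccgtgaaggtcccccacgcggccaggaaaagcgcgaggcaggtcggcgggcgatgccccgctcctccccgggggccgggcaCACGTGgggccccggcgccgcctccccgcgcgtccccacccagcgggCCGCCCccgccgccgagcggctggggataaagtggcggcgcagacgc
Pnpla7: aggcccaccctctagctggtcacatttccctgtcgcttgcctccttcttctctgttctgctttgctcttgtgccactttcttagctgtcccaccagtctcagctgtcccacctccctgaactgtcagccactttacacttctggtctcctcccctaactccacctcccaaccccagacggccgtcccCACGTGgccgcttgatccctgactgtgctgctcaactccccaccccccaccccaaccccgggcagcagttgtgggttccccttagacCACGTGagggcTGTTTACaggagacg
The Pnpla2 window held 2 GC boxes, which begin at positions -109 and -26 counted from the start site, and no match to the other 6 motifs. A GC box was present in 35.88% of the 32544 mouse promoter windows of this length. G and C made up 65.33%, 70% and 59.67% of the printed windows of Pnpla2, Mgll and Pnpla7, where the median of all windows was 53%. The shares of windows given here are not matched for this content. The Mgll window held a GC box, an E-box and a forkhead site, and the Pnpla7 window held 2 E-boxes and a forkhead site. E-boxes were present in 7.166% of all windows and the forkhead site in 3.657%. Lipe also had a forkhead site, at -119, and an E-box, at -155, in the windows of separate starts. The Lipe window with the E-box also held 6 GC boxes, that of Pnpla8 held 2 and that of Abhd5 held 1. The window of the downstream start of Mgll, not printed here, held a GC box and no match to the other 6 motifs. The nuclear receptor half-site, present in 16.25% of all windows, occurred among the 7 members only in the window of Abhd5. The cAMP response element, present in 1.801%, occurred only in that of Pnpla3, beside 3 GC boxes and a CCAAT box. No window of the members held the TATA box, which is in 13.57% of all windows. A match says only that these letters are there.

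The libraries differed in ways that touch every comparison between the diets. The estimated depth was 30.0 ± 6.47 M reads on the Longevity diet and 42.5 ± 4.35 M reads on the standard diet (M, 1e+06 reads; mean ± SD, n = 5 mice each; two-sided exact permutation p = 0.0159), with a range of 24.7 to 45.7 M. Mitochondrial genes took 5.45 ± 1.58% and 9.74 ± 2.61% of the reads on the Longevity and standard diets (exact permutation p = 0.0238). Mouse LD_405 stood apart, lying alone at the low end of its group in 1081 of the 13157 genes (8.22%), where the other mice did so in 9 to 127. Over all genes, 87 rose and 162 fell on the Longevity diet at an adjusted p under 0.05. Without LD_405 the counts were 152 and 228. Median-of-ratios scaling moved the median log2 difference of all genes by 0.10 and gave 151 higher and 135 lower, and quantile normalization moved it by 0.11 and gave 151 and 148. Hepatocyte RNA was present throughout, and the most abundant of the 9 hepatocyte markers tested, albumin (Alb), averaged 124794 and 79126 CPM on the Longevity and standard diets.

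Of the 7 members, 1 rose and 0 fell on the Longevity diet at an adjusted p under 0.05 (limma on log2(CPM + 0.1), Benjamini-Hochberg over all 13157 genes). Among all tested genes 0.661% rose and 1.23% fell. At an unadjusted p under 0.05, 3 members were higher and 0 lower, a threshold that 5.92% of all tested genes passed as higher and 11.6% as lower. With voom weights 1 member rose and 0 fell. For 2 members, Pnpla2 and Pnpla7, all 5 mice on the Longevity diet lay above all 5 on the standard diet, as did 2.01% of all tested genes. The opposite arrangement, found in 3.49% of all tested genes, occurred in none of the 7. The median log2 difference of the members was 0.49 and that of all tested genes was -0.11, with 6 members above zero and 1 below, where 39.6% of all tested genes lay above zero and 60.4% below. The shares of all tested genes above and below zero, used here and further on, depend on the scaling. Their median was -0.0076 under median-of-ratios scaling and 0.0034 under quantile normalization. In bulk liver RNA, fewer cells of a type and less RNA per cell cannot be told apart, and this holds for each value that follows.

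**Figure D1:**
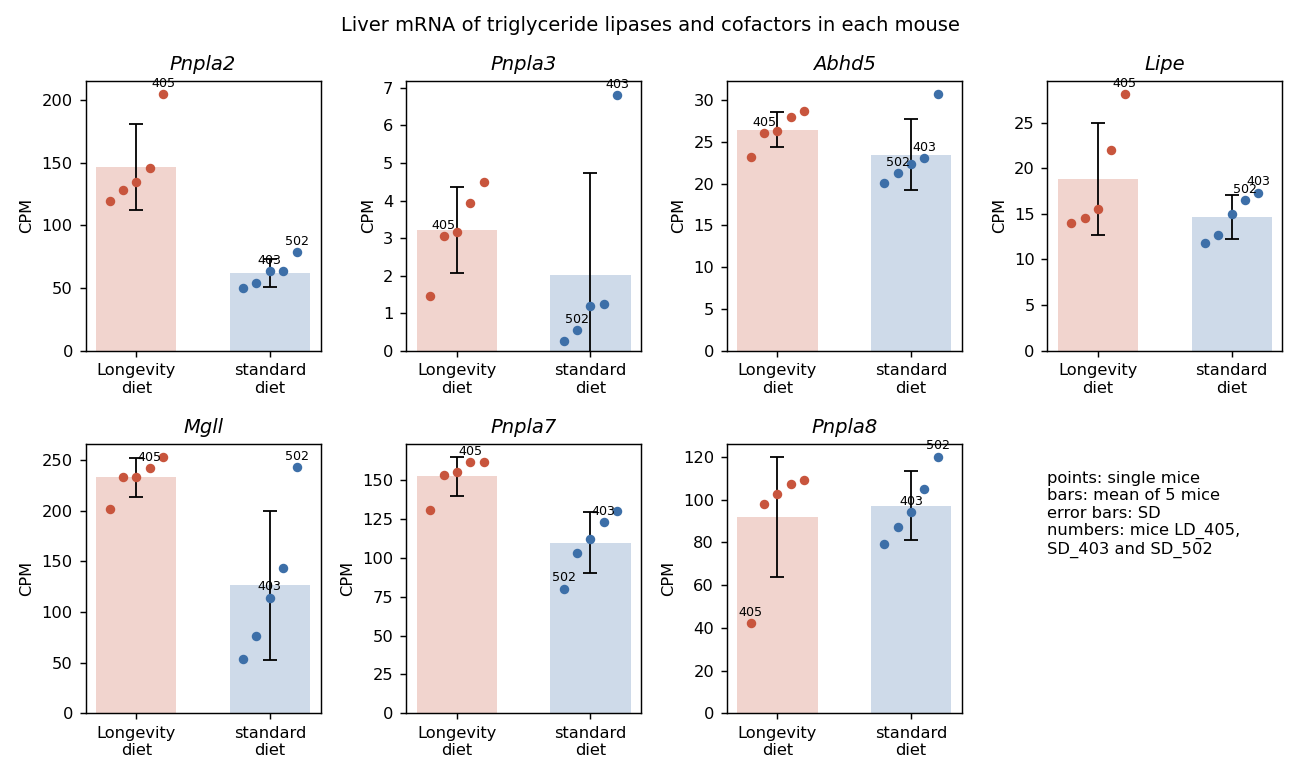
CPM of the 7 genes in each mouse, with the Longevity diet on the left and the standard diet on the right of each panel; points are single mice, bars are means of 5 mice and error bars are SD (cut at 0 for Pnpla3), each panel having its own CPM axis from 0. All Longevity diet points lie above all standard diet points for Pnpla2 and Pnpla7, LD_405 is the lowest Pnpla8 point at 42.1 CPM, and SD_502 is the only standard diet point among those of the Longevity diet for Mgll.

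Pnpla2 (ENSMUSG00000025509.16, mm39 chromosome 7 from 141035111 to 141040656, plus strand) had 205, 146, 128, 119.6 and 135 CPM in LD_405, LD_406, LD_442, LD_513 and LD_515. In SD_403, SD_500, SD_501, SD_502 and SD_646 it had 63.5, 64.0, 54.0, 78.8 and 50.2 CPM. The lowest mouse on the Longevity diet was thus well above the highest on the standard diet, and LD_405 was the highest of all. The means were 147 ± 34.0 CPM on the Longevity diet and 62.1 ± 11.1 CPM on the standard diet (SD, n = 5 each). Its log2 difference was 1.23 (SE 0.19, 95% interval 0.81 to 1.64, limma adjusted p = 0.00839), and Pnpla2 ranked 33 of all genes by p. The exact permutation test on the mean gave p = 0.00794, the smallest that 5 against 5 mice can give. Leaving out any 1 mouse kept the call, with log2 differences of 1.10 to 1.32, and without LD_405 it was 1.10 (adjusted p = 0.00643). The call was lost with the leading digit of the mouse number as a covariate (1.10, adjusted p = 0.0512) and with log2 depth as a covariate (1.45, adjusted p = 0.194). It was also lost on leaving out LD_406 with LD_515 (1.25, adjusted p = 0.106) or SD_403 with SD_646 (1.15, adjusted p = 0.0899). What the leading digit stands for is not given in the labels. The digits were not spread evenly over the diets, and SD_646 was the only mouse with its digit.

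Pnpla3 (ENSMUSG00000041653.6, chromosome 15 from 84052038 to 84071437, plus strand) had few reads and varied most between mice of the 7. It had 3.05, 4.49, 3.93, 3.15 and 1.46 CPM in LD_405, LD_406, LD_442, LD_513 and LD_515. The values in SD_403, SD_500, SD_501, SD_502 and SD_646 were 6.81, 1.18, 0.25, 0.55 and 1.24 CPM. All mice on the Longevity diet were above 4 of the 5 on the standard diet, while SD_403 was above all of them. The lowest value, in SD_501, rests on about 9 reads. The log2 difference was 1.35 with a wide interval of -0.05 to 2.76 (adjusted p = 0.302). Without SD_403 it was 1.98 (adjusted p = 0.0953).

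Abhd5 (ENSMUSG00000032540.17, chromosome 9 from 122180673 to 122210589, plus strand), the activator of PNPLA2, had 26.1, 28.0, 26.3, 23.2 and 28.7 CPM in LD_405, LD_406, LD_442, LD_513 and LD_515. Its levels in SD_403, SD_500, SD_501, SD_502 and SD_646 were 23.1, 22.3, 30.7, 21.2 and 20.0 CPM. The groups overlapped, and SD_501 held the highest value of all. Its log2 difference was 0.19 (SE 0.17, 95% interval -0.18 to 0.56, adjusted p = 0.605), and it turned to -0.048 with log2 depth as a covariate. A difference between the diets of up to about 0.56 on the log2 scale is therefore within the interval.

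The ratio of Pnpla2 CPM to the CPM of its activator was compared between mice after the values had been seen, and is given without a test. CPM was not divided by transcript length here, so such a ratio compares mice and does not give the relative amounts of the mRNAs. The ratio of Pnpla2 CPM to Abhd5 CPM was 7.87, 5.19, 4.88, 5.15 and 4.69 in LD_405, LD_406, LD_442, LD_513 and LD_515. It was 2.76, 2.87, 1.76, 3.71 and 2.51 in SD_403, SD_500, SD_501, SD_502 and SD_646. The groups did not overlap, and LD_405 was far above the other mice of its diet. The ratio of Pnpla2 CPM to the CPM of its inhibitor G0s2 lay between 0.39 and 0.82 on the Longevity diet and between 0.23 and 1.32 on the standard diet, and so overlapped widely.

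Lipe (ENSMUSG00000003123.16, chromosome 7 from 25078952 to 25098135, minus strand), the diacylglycerol lipase, had 28.1, 15.5, 14.6, 22.0 and 14.0 CPM in LD_405, LD_406, LD_442, LD_513 and LD_515. In SD_403, SD_500, SD_501, SD_502 and SD_646 it had 17.3, 15.0, 11.7, 16.5 and 12.6 CPM. LD_405 and LD_513 were above every mouse on the standard diet, and the other mice were mixed. The log2 difference was 0.32 (SE 0.23, 95% interval -0.17 to 0.82, adjusted p = 0.490), and without LD_405 it was 0.16. The long noncoding RNA 4732471J01Rik lies across Lipe on the opposite strand, at 1.05 and 0.997 CPM on the Longevity and standard diets. Whether the libraries kept the strand is not given in the sources used here, so reads of overlapping genes may not have been told apart.

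Mgll (ENSMUSG00000033174.18, chromosome 6 from 88701394 to 88805342, plus strand), the monoacylglycerol lipase, had 242, 233, 233, 253 and 202 CPM in LD_405, LD_406, LD_442, LD_513 and LD_515. The values in SD_403, SD_500, SD_501, SD_502 and SD_646 were 114, 144, 53.7, 243 and 76.6 CPM. The mice on the Longevity diet lay close together, while those on the standard diet spread widely, and SD_502 lay among the Longevity diet values. The means were 233 ± 19.2 CPM on the Longevity diet and 126 ± 73.8 CPM on the standard diet (SD, n = 5 each). Its log2 difference was 1.07 (SE 0.32, 95% interval 0.38 to 1.76) and did not pass the test over all genes (adjusted p = 0.110). The exact permutation test of this gene alone gave p = 0.0397. Without SD_502 the log2 difference was 1.35 and passed (adjusted p = 0.0231), and with a weight per library it was 0.98 (adjusted p = 0.0486). The antisense long noncoding RNA Gm26588 lies across Mgll and had 10.7 and 10.0 CPM on the Longevity and standard diets.

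Pnpla7 (ENSMUSG00000036833.17, chromosome 2 from 24866045 to 24944069, plus strand), the lysophospholipase, had 161, 155, 153, 131 and 162 CPM in LD_405, LD_406, LD_442, LD_513 and LD_515. Its levels in SD_403, SD_500, SD_501, SD_502 and SD_646 were 123, 103, 130.04, 80.1 and 112 CPM. The groups did not overlap, but the lowest mouse on the Longevity diet, LD_513, was almost level with SD_501. The means were 152 ± 12.6 CPM on the Longevity diet and 110 ± 19.4 CPM on the standard diet (SD, n = 5 each). The log2 difference was 0.49 (SE 0.17, 95% interval 0.12 to 0.86). The exact permutation p was 0.00794 for this gene alone, and the adjusted p over all genes was 0.157. A processed pseudogene on the same strand, Gm13370, overlaps Pnpla7 and had 49.8 and 34.2 CPM on the Longevity and standard diets, and how reads in the overlap were assigned is not given in the sources used here.

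Pnpla8 (ENSMUSG00000036257.16, chromosome 12 from 44268153 to 44369315, plus strand), the phospholipase of mitochondria and peroxisomes, had 42.1, 103, 108, 109 and 98.1 CPM in LD_405, LD_406, LD_442, LD_513 and LD_515. In SD_403, SD_500, SD_501, SD_502 and SD_646 it had 94.3, 105, 79.4, 120.2 and 87.1 CPM. LD_405 alone lay far below all other mice, which overlapped. Its log2 difference was -0.15 (95% interval -0.70 to 0.41, adjusted p = 0.800), and without LD_405 it turned to 0.12 (adjusted p = 0.740).

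**Figure D2:**
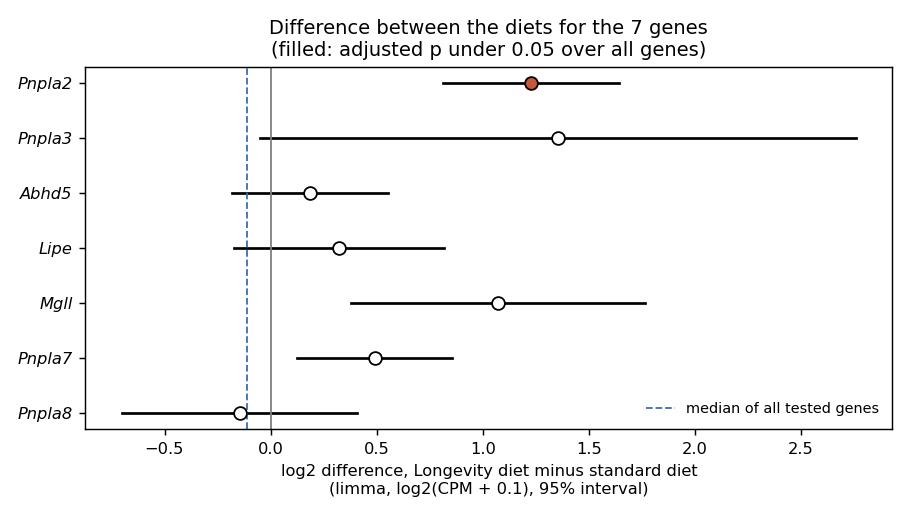
Log2 difference, Longevity diet minus standard diet, of each of the 7 genes (points) with its 95% interval (lines) from limma; the filled point passed the adjusted test over all genes and the dashed line is the median of all tested genes at -0.11. The intervals of Pnpla2 (0.81 to 1.64), Mgll (0.38 to 1.76) and Pnpla7 (0.12 to 0.86) lie above zero, and that of Pnpla3 is the widest.

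The members did not share 1 order of the mice. LD_405 was the highest of all 10 mice for Pnpla2 and Lipe and the lowest for Pnpla8. SD_502 was the highest for Pnpla8, second to LD_513 for Mgll, and the lowest for Pnpla7. SD_501 was the lowest for Pnpla3, Mgll and Lipe and the highest for Abhd5. SD_403 was the highest for Pnpla3 and ranked 8 for Pnpla2. These patterns are plotted in the grid of centred values.

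**Figure D3:**
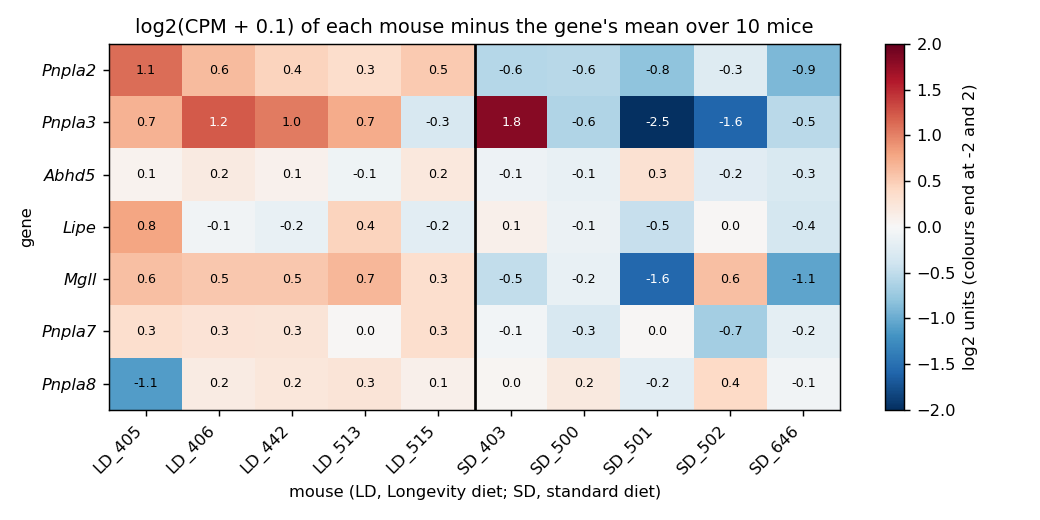
Log2(CPM + 0.1) of each of the 7 genes (rows) in each mouse (columns, Longevity diet on the left and standard diet on the right) minus the gene's mean over the 10 mice, in log2 units, with red above and blue below that mean. The row of Pnpla2 is above its mean in all 5 Longevity diet mice and below it in all 5 standard diet mice, and the row of Pnpla8 has its only strongly blue cell in LD_405.

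Apart from the ratio of Pnpla2 to Abhd5, levels of the 7 members were compared with each other only per length, as CPM per kb of the annotated transcript with the longest coding sequence. On this scale Mgll stood at 178 ± 14.7 and 96.5 ± 56.4 CPM per kb on the Longevity and standard diets, the highest of the 7 in every mouse. Pnpla2 had 55.9 ± 12.9 and 23.7 ± 4.23, and Pnpla7 had 33.3 ± 2.76 and 24.0 ± 4.25 CPM per kb. On the standard diet Pnpla2 and Pnpla7 did not differ beyond their spread. Abhd5 had 8.38 ± 0.676 and 7.43 ± 1.34, Pnpla8 had 6.80 ± 2.08 and 7.20 ± 1.18, and Lipe had 5.08 ± 1.65 and 3.94 ± 0.649 CPM per kb. The ranges of these 3 overlapped on the Longevity diet, while on the standard diet those of Abhd5 and Pnpla8 overlapped and every Lipe value, at most 4.66, lay below both. Pnpla3 was at 2.45 ± 0.871 and 1.53 ± 2.07 CPM per kb, ranking 6 or 7 in every mouse. The place of Mgll depends on the length used: over the 4820 bases of all its exons, in place of the 1308 of the transcript, it had 48.2 and 26.2 CPM per kb and ranked between 1 and 3.

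Pex11a and Abhd6 were among the 3 protein-coding genes, of 11593 compared, whose centred log2 profile over the 10 mice was nearest to that of Pnpla2. Their root mean square differences from Pnpla2 were 0.228 and 0.231 log2 units, where Pnpla2 itself varied by 0.663 about its own mean. Pex11a, which drives division of peroxisomes, stood at 146 ± 14.5 CPM on the Longevity diet and 61.1 ± 16.6 CPM on the standard diet (SD, n = 5 each; limma adjusted p = 0.00759). Abhd6 is a monoacylglycerol lipase like Mgll. It had 51.4, 38.3, 33.2, 33.3 and 31.0 CPM in LD_405, LD_406, LD_442, LD_513 and LD_515, and 16.2, 24.0, 20.7, 23.3 and 13.9 CPM in SD_403, SD_500, SD_501, SD_502 and SD_646. As with Pnpla2, the groups did not overlap and LD_405 was highest. The log2 difference of Abhd6 was 0.94 (adjusted p = 0.0405). These genes were picked for their likeness over the same mice, so their difference between the diets is not independent of that of Pnpla2.

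Of 16 listed genes for proteins that coat the droplet, act in forming it or hold lipolysis back, 14 were tested. The log2 difference was above zero in 12 of them and below it in 2, where 39.6% of all tested genes were above zero. The median was 0.44, beside -0.11 for all genes. Of these, 1 rose and 0 fell, beside 0.661% and 1.23% of all tested genes. At an unadjusted p under 0.05, 7 were higher and 1 lower, beside 5.92% and 11.6% of all tested genes. Fitm1 and Fitm2, which act in droplet formation, were among the 7 higher. The gene that rose was Plin5, which binds ABHD5 and PNPLA2 at the droplet surface. It had 112, 102, 54.8, 85.1 and 75.0 CPM in LD_405, LD_406, LD_442, LD_513 and LD_515, and 35.6, 36.2, 21.9, 42.3 and 21.2 CPM in SD_403, SD_500, SD_501, SD_502 and SD_646. Every mouse on the Longevity diet was above every mouse on the standard diet (log2 difference 1.46, SE 0.25, adjusted p = 0.0122). The next by p were Cidec, a droplet fusion protein, at 2.87 ± 2.41 CPM on the Longevity diet and 0.483 ± 0.597 CPM on the standard diet (adjusted p = 0.119), and Plin4, another coat protein, at 7.84 ± 3.92 CPM on the Longevity diet and 2.91 ± 1.44 CPM on the standard diet (adjusted p = 0.121). G0s2, the inhibitor of PNPLA2, had 258, 369, 252, 146 and 165 CPM on the Longevity diet and 99.3, 276, 44.8, 124 and 38.1 CPM on the standard diet, in the same order of mice. Its values overlapped through SD_500 (log2 difference 1.32, adjusted p = 0.160).

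Among other hydrolases of neutral, lysosomal and signalling lipids, 28 of 29 listed were tested. Of these 1 rose and 1 fell, beside 0.661% and 1.23% of all tested genes. The median log2 difference was -0.15, with 12 above zero and 16 below. At an unadjusted p under 0.05, 5 were higher and 4 lower, beside 5.92% and 11.6% of all tested genes. The gene that rose was Abhd6, and the one that fell was Ces3b, a carboxylesterase of the endoplasmic reticulum of hepatocytes. Ces3b had 43.2, 22.7, 17.5, 10.8 and 12.0 CPM in LD_405, LD_406, LD_442, LD_513 and LD_515. The values in SD_403, SD_500, SD_501, SD_502 and SD_646 were 281, 199, 93.3, 109 and 216 CPM. The groups lay far apart, with a log2 difference of -3.14 (SE 0.39, adjusted p = 0.00283). Its close copy Ces3a averaged 179 ± 65.6 CPM on the Longevity diet and 385 ± 123 CPM on the standard diet (log2 difference -1.11, adjusted p = 0.0634), and since their sequences are alike, reads may have been divided between them.

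Of 27 listed regulators of lipase transcription, phosphorylation and turnover, 24 were tested. Of these 0 rose and 1 fell, beside 0.661% and 1.23% of all tested genes, with a median log2 difference of -0.21. At an unadjusted p under 0.05, 0 were higher and 2 of 24 lower, no larger shares than the 5.92% and 11.6% of all tested genes. The 1 that fell was Adrb3, a beta-adrenergic receptor best known from adipocytes. It had 12.0, 7.63, 12.1, 9.14 and 9.98 CPM in LD_405, LD_406, LD_442, LD_513 and LD_515, and 45.8, 14.0, 19.9, 30.6 and 31.3 CPM in SD_403, SD_500, SD_501, SD_502 and SD_646. No mouse on the Longevity diet reached the lowest of the standard diet (log2 difference -1.38, SE 0.29, adjusted p = 0.0300). Mlxipl, a glucose-responsive transcription factor, averaged 146 ± 48.4 CPM on the Longevity diet and 225 ± 52.1 CPM on the standard diet (adjusted p = 0.167), and the nuclear receptor Pparg 11.6 ± 2.19 CPM on the Longevity diet and 8.45 ± 3.26 CPM on the standard diet (adjusted p = 0.355). Ppara, Foxo1, Sirt1 and Srebf1 encode factors known to act on Pnpla2 or its family, directly or through others. Their mRNAs had log2 differences of -0.07, 0.10, -0.66 and -0.05 (adjusted p = 0.962, 0.896, 0.391 and 0.922). In the same order, the intervals were -1.25 to 1.11, -0.58 to 0.78, -1.47 to 0.15 and -0.49 to 0.39. Ppara varied widely, from 11.2 to 65.6 CPM on the Longevity diet and 12.9 to 101 CPM on the standard diet. A large difference in either direction is therefore within the interval of Ppara, and a large fall within that of Sirt1. These genes were named after their values had been seen.

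Genes that build triglyceride were measured beside those that break it down. Of 13 tested of 15 listed, 2 rose and 0 fell, beside 0.661% and 1.23% of all tested genes, with a median log2 difference of 0.16. At an unadjusted p under 0.05, 4 were higher and 0 lower, beside 5.92% and 11.6% of all tested genes. Lpin1, a phosphatidate phosphatase that makes diacylglycerol and also acts in the nucleus, averaged 139.6 ± 32.0 CPM on the Longevity diet and 42.1 ± 15.2 CPM on the standard diet (log2 difference 1.76, SE 0.24, adjusted p = 0.00360). Gpd1, which makes glycerol 3-phosphate, averaged 396 ± 56.3 CPM on the Longevity diet and 176 ± 62.0 CPM on the standard diet (log2 difference 1.24, SE 0.24, adjusted p = 0.0238). Agpat3, an acyltransferase, averaged 263 ± 19.0 CPM on the Longevity diet and 169 ± 52.2 CPM on the standard diet (adjusted p = 0.104). The acyltransferases of the last step, Dgat1 and Dgat2, had log2 differences of 0.07 and 0.15 (adjusted p = 0.870 and 0.700).

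Genes for the uptake, activation, oxidation and ketone body formation of fatty acids were listed together with the glycerol channel Aqp9. All were above zero, 16 of 16 tested, beside 39.6% of all tested genes, with a median log2 difference of 0.59. Of these 2 rose and 0 fell, beside 0.661% and 1.23% of all tested genes, and without LD_405 the count that rose was 4. At an unadjusted p under 0.05, 8 were higher and 0 lower, beside 5.92% and 11.6% of all tested genes. Hadhb, a subunit of the mitochondrial trifunctional protein, averaged 105 ± 13.0 CPM on the Longevity diet and 62.0 ± 6.69 CPM on the standard diet (log2 difference 0.76, SE 0.16, adjusted p = 0.0300). Acadvl, the very long chain acyl-CoA dehydrogenase, averaged 473 ± 32.4 CPM on the Longevity diet and 292 ± 47.0 CPM on the standard diet (log2 difference 0.71, SE 0.16, adjusted p = 0.0380). Acadl, the long chain enzyme, averaged 324 ± 52.3 CPM on the Longevity diet and 193 ± 35.6 CPM on the standard diet (log2 difference 0.75, adjusted p = 0.0604), and without LD_405 it passed (0.87, adjusted p = 0.0158). With voom weights the counts of calls in these 5 lists were as given.

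**Figure D4:**
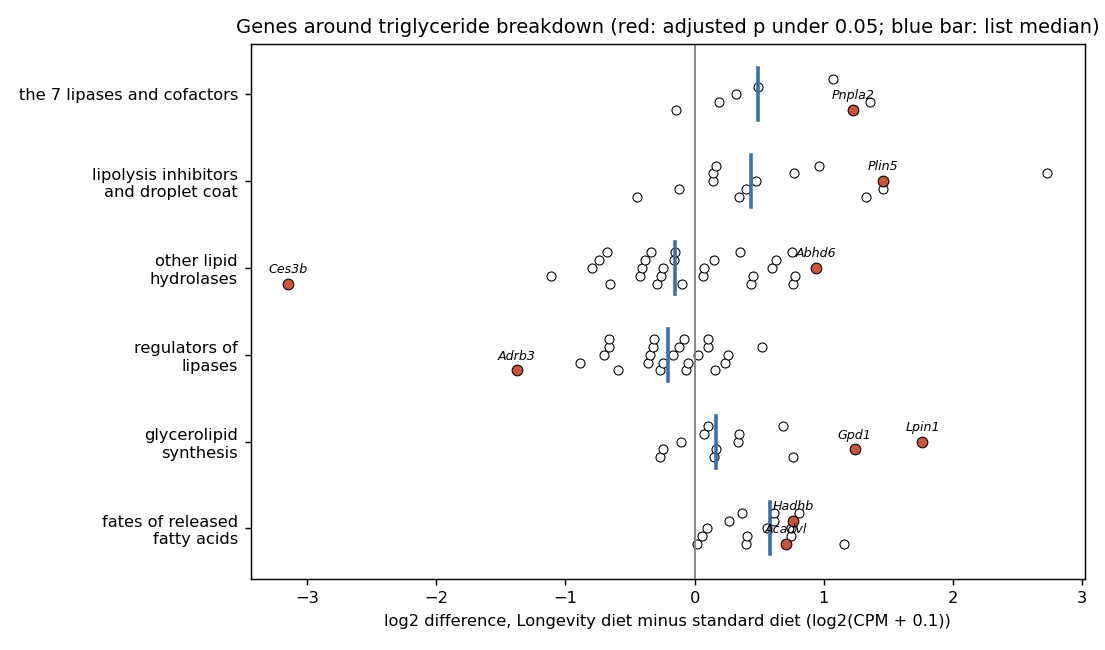
Log2 difference, Longevity diet minus standard diet, of each tested gene (points) in the 7 lipases and cofactors and in 5 lists of related genes (rows); red points passed the adjusted test over all genes, blue bars are the medians of each row, and heights within a row only separate the points. The medians are 0.49 for the lipases and cofactors, 0.44, -0.15, -0.21 and 0.16 in the next 4 rows and 0.59 for the fates of fatty acids, and Ces3b is the point farthest from zero at -3.14.

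Few markers of other cell types passed the test, but the sums of the stellate cell, sinusoidal endothelial and hepatocyte lists did not overlap between the diets. Their part in the differences above was not tested. The 10 stellate cell markers, led by Dcn, summed to 190 to 319 CPM on the Longevity diet. On the standard diet they summed to 348 to 511 CPM. Of the 10, 1 fell, beside 1.23% of all tested genes. At an unadjusted p under 0.05, 8 were lower and 0 higher, beside 11.6% and 5.92% of all tested genes. The summed level of 10 sinusoidal endothelial markers, led by Clec4g, was 116 to 253 CPM on the Longevity diet. It was 277 to 379 CPM on the standard diet. This list had 0 calls and 8 lower at an unadjusted p under 0.05, beside 11.6% of all tested genes. Neutrophil markers, 6 of 10 tested, summed to 1.98 to 6.44 CPM on the Longevity diet and 5.48 to 117 CPM on the standard diet. The high sums were those of SD_403 (117 CPM) and SD_646 (99.0 CPM), while SD_500, SD_501 and SD_502 had 7.84, 18.8 and 5.48 CPM. In this list 1 gene, S100a8, fell, beside 1.23% of all tested genes. At an unadjusted p under 0.05, 5 of the 6 were lower, beside 11.6% of all tested genes. The 10 markers of Kupffer cells and macrophages, led by Clec4f, summed to 213 to 733 CPM on the Longevity diet and 435 to 726 CPM on the standard diet, which overlapped. There were 0 calls and 1 lower at an unadjusted p under 0.05, a share near that of all tested genes. Their log2 differences were below zero in 9 of 10, with a median of -0.62, beside 60.4% and -0.11 for all tested genes. The sum of the hepatocyte markers, most of it albumin, was 147204 to 200516 CPM on the Longevity diet. It was 99909 to 146181 CPM on the standard diet. Of the 9 tested, 4 were above zero and 5 below, and 1, Cps1, fell, beside 1.23% of all tested genes. At an unadjusted p under 0.05, 2 were higher and 3 lower, so the sum does not stand for the markers as a set.

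Pnpla2, Lipe and Mgll are also highly expressed in fat cells, so adipocyte markers were read beside them. Of 10 listed, Adipoq, Lep, Retn, Plin1 and Adig had no row in the table. The other 5 had a row, and 3 of them were tested. Their sum was 13.7 to 28.3 CPM on the Longevity diet and 19.7 to 50.7 CPM on the standard diet, with Adrb3 the most abundant; Adrb3 and Cidec are also in the lists above. Cfd and Nnat were near zero, with means of 0.0462 and 0.169 CPM for Cfd and 0.0481 and 0.223 CPM for Nnat on the Longevity and standard diets. Fabp4 averaged 6.91 and 6.79 CPM. Pancreatic acinar markers, which with fat are a possible trace of neighbouring tissue, summed to 9.43 to 27.2 CPM on the Longevity diet. On the standard diet they summed to 13.1 to 26.2 CPM. Most of it was Cela1, the only 1 of 10 tested. Only 2 of the 10 had a row in the table, and the other, Cela2a, averaged 0.425 and 0.150 CPM on the Longevity and standard diets.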

How the data were processed

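RNA from 10 livers was sequenced after poly-A selection. The values are CPM, to which the authors added 0.0001 in the deposited table; this was subtracted. Per the submitters' processing notes, STAR, Partek and the mm39 genome were used; versions, quantifier and low-count filter are not given in the sources used here. Steps in the low values gave the depth, but only 84.6% to 87.9% of low values (under 100 reads) came out whole to within 0.1 read, short of the 95% needed to treat them as counts, so no count test was run. A floor of 3 reads is 0.0657 to 0.121 CPM and covers counting error only.

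The deposited CPM were analysed as log2(CPM + 0.1), so fold changes of low genes are understated, for genes averaging at least 1 CPM. Moderated two-sided tests came from limma 3.58.1 in R 4.3.3 with statmod 1.5.0 (options trend and robust) and a model with diet alone, with Benjamini-Hochberg adjustment over all 13157 genes at 0.05. "Rose" and "fell" mean passing this test. Exact permutation tests, two-sided, used all 252 assignments of mice to diets. The script was tested on simulated data. Differences are Longevity diet minus standard diet. Coordinates are those of the deposited table; GENCODE M21 (GRCm38) gave lengths only, and promoters are RefSeq's, matched for all 7 members.

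The members and the lists were chosen with earlier results of these data known. The text names all members, the genes of each list that passed or else the smallest p up to 3, and the 3 profiles nearest each member that passed, 1 of which is not reported here; other genes named were chosen with their values known, and G0s2 as the inhibitor of PNPLA2. Other pseudocounts, filters, scalings, weights (per library, or voom), covariates, thresholds and left-out mice were tried; the total without mitochondrial genes was added after seeing the data.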

Additional observations from a re-analysis of the deposited data

Results flagged for a closer look

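In 58 groups of 5 mice, covering the members, the named genes, the 2 ratios and the library measures, 5 had 1 mouse isolated at the end of its group by Dixon's criterion, which flags about 5% of groups by chance. For Pnpla8, LD_405 had 42.1 CPM, where the other mice on the Longevity diet had 98.1 to 109 CPM. For Acadl, LD_405 had 231 CPM, where the others had 343 to 352 CPM. For the ratio of Pnpla2 to Abhd5, LD_405 had 7.87, where the others had 4.69 to 5.19. For Pnpla7, LD_513 had 131 CPM, where the other mice on the Longevity diet had 153 to 162 CPM. For the mitochondrial share of reads, SD_502 had 5.12%, where the other mice on the standard diet had 10.5% to 11.4%. LD_405 accounts for 3 of these, and it also lay alone at the low end of its group in 8.22% of all tested genes.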

How the results depend on the processing

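Pnpla2 was called in 23 of 27 alternatives, and its log2 difference stayed between 1.10 and 1.45. The 4 that lost the call were the leading digit of the mouse number (1.10) and log2 depth (1.45) as covariates, and the mice LD_406 with LD_515 (1.25) or SD_403 with SD_646 (1.15) left out; in each of these 0 members were called by limma, with an unadjusted p of 0.000447, 0.000415, 0.000366 and 0.000495 for Pnpla2. Mgll was called with a weight per library (0.98) and without SD_502, ranging from 0.81 to 1.35 over left-out mice, so that 2 members rose with a weight per library and 1 to 2 over left-out mice. Pnpla8 reversed with a weight per library (0.045) and without LD_405, ranging from -0.23 to 0.12 over left-out mice, and Abhd5 reversed with log2 depth (-0.048). The causes were not tested. Pnpla3 is left out by a mean of at least 5 CPM. Over all genes the counts higher and lower were 151 and 135 under median-of-ratios scaling, 151 and 148 under quantile normalization, 329 and 476 with a weight per library, 28 and 70 with the leading digit, 0 and 0 with log2 depth (1981 at an unadjusted p under 0.05), 202 and 339 at a threshold of 0.1, 2 and 15 without LD_406 and LD_515, 16 and 20 without SD_403 and SD_646, and 26 to 152 and 57 to 228 over left-out mice. Of the genes around the members, Ces3b was called in 26 of 27 alternatives, Lpin1 in 25, Plin5 in 23, Gpd1 in 19, Adrb3 in 16, Hadhb in 15, Abhd6 in 14 and Acadvl in 12. Depth limits Pnpla3 most, since its lowest value rests on about 9 reads. No paired analysis was possible because no mouse number occurs on both diets.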

Other observations

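Pnpla5, a close relative of Pnpla3 that lies 44.66 kb from it on chromosome 15 with 1 other gene of the table between them, had its highest value in the same mouse, SD_403. It had 2.79, 1.05, 0.039, 0.55 and 0.27 CPM in LD_405, LD_406, LD_442, LD_513 and LD_515, and 7.22, 0.46, 1.44, 0 and 0.31 CPM in SD_403, SD_500, SD_501, SD_502 and SD_646. The groups overlapped throughout (limma adjusted p = 0.928). It was named after its values had been seen.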
